A study of Mus musculus with 46 samples.

Results

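The clustered protocadherins are 56 mouse genes, 12 of the alpha, 22 of the beta and 22 of the gamma cluster, and they were chosen by symbol alone, as every Pcdha, Pcdhb, Pcdhga, Pcdhgb and Pcdhgc gene with a number among the 37108 genes of the deposited gene table. The same 56 symbols were read in a second table of 35976 symbols that covers the established lines. RNA-seq was made of mouse embryonic fibroblasts (MEF) during reprogramming to induced pluripotent stem cells (iPSC), and the comparisons here ask how the 3 clusters were expressed along that way and whether this depended on the form of Nanog that was given. The MEF came from E13.5 embryos of a cross between OG2 mice, which carry an Oct4-GFP reporter, and 129 mice. The cells were infected in 2 rounds with retroviral (pMXs) Oct4 together with Nanog as NanogWT, the native protein, or as NanogBiD, called NanogN70 in the labels, a Nanog that carries the N-terminal 70 residues of SS18, the piece by which this BAF complex protein binds the remodelling ATPase BRG1. D0 is the end of infection, so the D0 cells already held both transgenes, and all time-course cells were kept in iCD3 medium and moved to N2B27 with 2i and LIF after 7 days. The time course had 31 libraries, 2 for each combination on each of 8 days (D0, D1, D3, D5, D7, then D8, D10, D12), except for a single one of NanogBiD at D8. Untreated MEF gave 2 libraries, mouse embryonic stem cells (mES) of OG2 embryos gave 1, and iPSC in 2i and LIF gave 6 for each combination. By the file headers the iPSC labelled iPSC1 were at passage 5 or 6 and those labelled iPSC2 at passage 2, so the line and the passage cannot be told apart. The labels do not say whether NanogWT iPSC1 samples 1 and 1-2 come from 1 clone, and they were counted as separate samples, while averaging them changed no count of called members. The time-course libraries are mixed populations in which only some cells become colonies, so fewer expressing cells and less RNA per cell cannot be told apart in any value below.

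Clustered protocadherins are single-pass membrane proteins with cadherin repeats that bind the same isoform on a neighbouring cell, and they are best known for giving each neuron a combination of isoforms by which it recognises its own branches. Each variable exon has its own promoter, and a cell uses only some of them. In the alpha and gamma clusters each variable exon is spliced to constant exons that the whole cluster shares, whereas each beta gene is a single exon of its own. The choice of promoter is known to involve CTCF and cohesin, which loop promoters to distant enhancers, together with DNA methylation by Dnmt3b and silencing by Smchd1, Setdb1 and other repressors.

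The 3 clusters lie side by side on chromosome 18. On GRCm38, RefSeq places the alpha genes between 36930285 and 37188897, the beta genes between 37264998 and 37521419, and the gamma genes between 37661775 and 37841873. The 22 beta genes follow each other in the order of their numbers over 256 kb, and none of their 231 pairs overlap. All 66 alpha pairs and all 231 gamma pairs overlap, because their gene models run to the shared constant exons. This showed in the gene table, in which alpha genes correlated with each other across the 34 libraries with a median pairwise r of 0.997 and gamma genes with 0.999, against 0.557 (range -0.0103 to 0.962) for beta genes. Apart from Pcdhgc3, the 21 gamma genes lay between 0.859 and 1.10 times their common median in every library. In this table the alpha and the gamma cluster are therefore each read as about 1 measurement, and the account rests on the beta genes, which are counted one by one.

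All levels are FPKM, fragments per kilobase of gene model scaled to the mapped total of the library, so levels can be set beside each other between genes. Differences are on the log2(FPKM + 1) scale, which understates the change of genes below about 1 FPKM. A gene is called changed where limma's moderated test gave a Benjamini-Hochberg adjusted p under 0.05 over all genes tested and the log2 difference was at least 1. The smallest FPKM steps of the beta genes were whole multiples of 1 unit per library (132 of 153 values under 60 units in genes not used to set the scale were within 0.1 of a whole number), and they gave library totals of 13.1 to 17.8 M units in 28 libraries and 30.0 to 51.5 M (M, mega) in the 6 NanogWT libraries of D8 to D12. From D8 on, depth and combination therefore cannot be told apart, although at these depths the 2 leading beta genes still rested on 83 units or more in each D12 library. Replicates correlated with r of 0.979 to 0.995 over all genes and 0.805 to 0.983 over the beta genes (16 pairs). The labels do not say whether replicates came from separate embryos or infections, so the p-values measure the spread between these libraries, which may be technical.

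The labelled cell types were checked with marker lists. All 10 fibroblast markers were at 1 FPKM or more in MEF and in every time-course group, with a summed level of 5928 to 6891 FPKM in MEF, 2404 to 2872 in NanogWT at D0 and 2396 to 2702 in NanogBiD at D0. By D12 the fibroblast sum was 2918 to 3485 FPKM with NanogWT and 303 to 449 with NanogBiD. All 10 pluripotent markers were at 1 FPKM or more with both combinations at D12, and 7 of them were listed at 0 in MEF, where the sum was 0.566 to 1.92 FPKM. The list includes Pou5f1 (Oct4) and Nanog, which were given as transgenes, and 2 markers reached 1 FPKM already at D0 with both combinations. Neural markers, the cells these genes are best known in, summed to 35.0 to 50.4 FPKM in MEF, 369 to 388 in NanogWT and 519 to 726 in NanogBiD at D12, with all 10 markers at 1 FPKM or more in both. The 4 epithelial markers summed to 4.39 to 13.0 FPKM in NanogWT and 69.9 to 142 in NanogBiD at D12. The part of these shifts in the results below was not tested.

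Beta protocadherins were expressed at low but measurable levels in MEF and were nearly silent in mES. The 22 genes summed to 10.6 and 15.9 FPKM in the MEF libraries, and Pcdhb22 (2.95 and 2.80 FPKM) and Pcdhb17 (2.57 and 2.39 FPKM) together made up 34.8% and 48.8% of it. In the mES library 21 of 22 beta genes were listed at 0, and Pcdhb22 was at 0.0898 FPKM, which is 4 units. A count of 3 units was taken as the upper limit for a listed 0, which the true level of a gene can at times exceed. It corresponds to 0.0392 to 0.0883 FPKM depending on the gene, and the MEF mean was above that limit for 19 of the 22 genes. With 1 mES library there is no replicate check on this difference, and the limit covers counting error only.

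**Figure D1:**
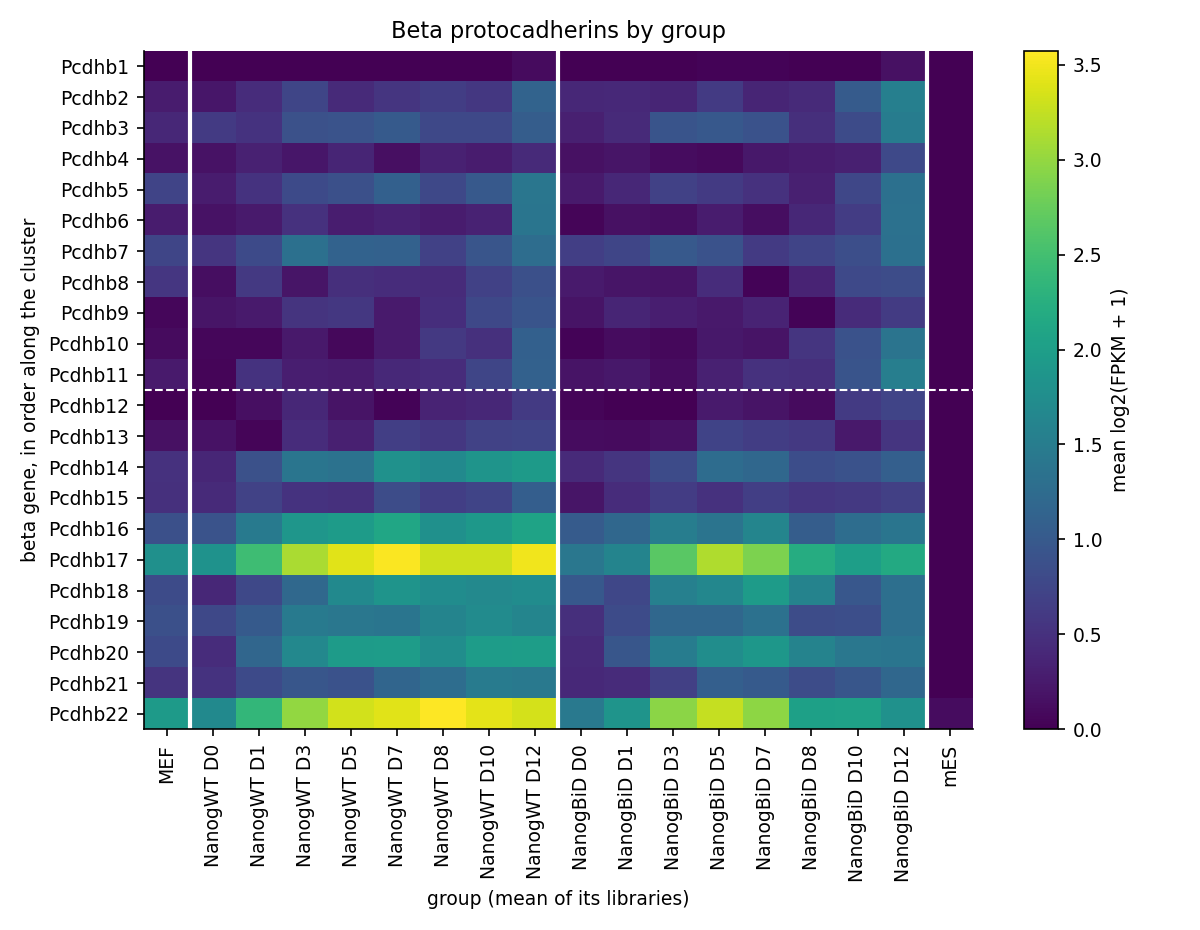
Mean log2(FPKM + 1) of each of the 22 beta genes (rows, in order along the cluster) in MEF, in each day of the NanogWT and NanogBiD time course, and in mES (columns; means of 2 libraries, 1 for NanogBiD at D8 and for mES). The brightest rows, Pcdhb17 and Pcdhb22, stay bright to D12 with NanogWT and dim after D7 with NanogBiD, while rows above the dashed line, Pcdhb1 to Pcdhb11, brighten at D12.

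The summed beta level climbed with both combinations up to D5. The summed level was 10.4 ± 0.191 FPKM (SD, n = 2) with NanogWT and 9.14 ± 0.740 with NanogBiD at D0, which are 0.783 and 0.690 times the MEF mean. It was 19.5 ± 0.740 and 12.5 ± 2.40 at D1, 31.8 ± 1.67 and 24.8 ± 3.98 at D3, and 36.8 ± 4.27 and 31.9 ± 3.71 at D5. The NanogBiD libraries lay below the NanogWT libraries at each of these days except D5, where they overlapped. With NanogWT the sum then stayed high, at 41.4 ± 0.326 at D7, 38.8 ± 0.271 at D8, 41.1 ± 3.45 at D10 and 48.6 ± 1.43 at D12. With NanogBiD it was 29.3 ± 0.499 at D7, 18.6 in the single D8 library, 21.3 ± 4.87 at D10 and 30.7 ± 7.58 at D12, again below the NanogWT libraries at each day. The NanogBiD to NanogWT ratio of the means was lowest at D8 (0.479) and D10 (0.518). The D12 to D0 ratio of the mean sums was 4.69 with NanogWT and 3.36 with NanogBiD. No test was made of a sum over members.

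**Figure D2:**
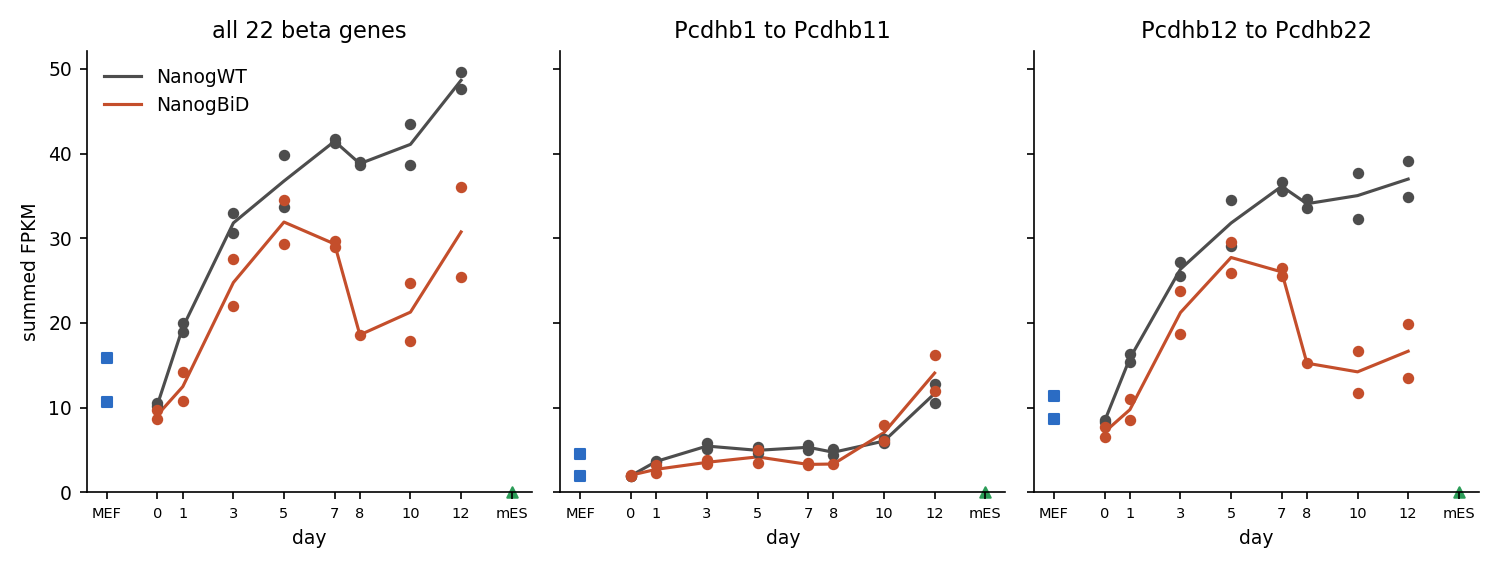
Summed FPKM of all 22 beta genes (left), of Pcdhb1 to Pcdhb11 (middle) and of Pcdhb12 to Pcdhb22 (right) against day, with 1 point per library and lines through the means of NanogWT (grey) and NanogBiD (red). Squares are MEF and the triangle is mES. The combinations are furthest apart from D8 on in the right panel, where NanogBiD ends at a mean of 16.7 and NanogWT at 37.0, while in the middle panel they end at 14.1 and 11.7.

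Of the 22 beta genes, 16 reached 1 FPKM in at least 2 time-course libraries and were tested. The other 6, Pcdhb1, Pcdhb4, Pcdhb8, Pcdhb9, Pcdhb12 and Pcdhb13, stayed below that filter, with highest values of 0.186 to 1.26 FPKM. A gene could pass through a single group in which it was high. Pcdhb6, Pcdhb10, Pcdhb11 and Pcdhb15 passed only through D12 libraries, so higher values at D12 were built into their selection. With no filter, where all 22 beta genes were tested, each time-course comparison below gave the same number of beta genes called higher and lower as with it. The fold limit on this scale itself needs about 1 FPKM or more in the higher group, so this is not a separate check on the selection. Counts are given against the share of all 16842 tested genes that were called.

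Between D0 and D7, the phase in iCD3 medium, the called beta genes all rose and all lay in the last part of the cluster. With NanogWT 6 of 16 were called higher (Pcdhb14, Pcdhb16, Pcdhb17, Pcdhb18, Pcdhb20 and Pcdhb22), against 12% of all genes tested, and with NanogBiD 3 of 16 (Pcdhb17, Pcdhb20 and Pcdhb22), against 12.7%. None was called lower with either, beside 5.69% and 6.15% of all genes. A call of lower on this scale needs about 1 FPKM or more at D0. Only Pcdhb16, Pcdhb17 and Pcdhb22 had such a mean there with either combination. Over all genes called, 67.8% were higher with NanogWT and 67.3% with NanogBiD, and 54.5% and 48.1% after quantile normalization, which left 5 and 3 beta genes called higher. The summed FPKM of the first 11 genes rose as well, 2.70 times with NanogWT and 1.63 times with NanogBiD. That of the last 11 rose 4.30 and 3.66 times. Most of the first 11 lay below 1 FPKM, where log2(FPKM + 1) understates change. A pseudocount of 0.1, which gives low genes more weight, called 11 and 9 beta genes. The share of all genes called at that setting is not given here, so these counts are not read as a result about the members. The fibroblast markers went the other way over these days, to summed levels of 1642 to 1674 FPKM with NanogWT and 871 to 1093 with NanogBiD at D7. This comparison, and those of D12 with D7, were added after the values had been seen.

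Pcdhb22, the last and most abundant beta gene, was at 1.96 and 2.54 FPKM with NanogWT and 1.87 and 1.60 with NanogBiD at D0. At D7 it was at 10.6 and 8.79 FPKM with NanogWT and at 7.11 and 6.52 with NanogBiD. Both combinations thus had every D7 library above every D0 library, with log2 differences of 1.72 (SE 0.19, adjusted p = 4.27e-07) and 1.52 (SE 0.19, adjusted p = 2.29e-06).

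Pcdhb17 went much the same way, from 3.26 and 1.95 FPKM with NanogWT and 1.64 and 1.69 with NanogBiD at D0 to 9.73 and 11.8 and to 5.83 and 6.81 at D7. Its log2 differences were 1.72 (SE 0.19, adjusted p = 5.79e-07) and 1.46 (SE 0.19, adjusted p = 5.15e-06). Pcdhb20 started lower, at 0.497 and 0.261 FPKM with NanogWT and 0.362 and 0.325 with NanogBiD, and reached 3.01 and 2.84 and 2.86 and 2.55 at D7, which are 7.72 and 7.87 times the D0 means. For Pcdhb20 the D7 libraries of both combinations overlapped, whereas for Pcdhb17 and Pcdhb22 all NanogBiD libraries lay below the NanogWT ones.

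Pcdhb14, Pcdhb16 and Pcdhb18 were called with NanogWT alone, but the difference between combinations at D7 was not called for any of them. Pcdhb14 had means of 0.311 FPKM at D0 and 2.53 at D7 with NanogWT, Pcdhb16 of 0.895 and 3.32, and Pcdhb18 of 0.332 and 2.64. With NanogBiD Pcdhb18 was already at 1.15 and 0.828 FPKM at D0, above the 0.161 and 0.502 of NanogWT, and it reached 2.27 and 3.60 at D7. Pcdhb19 and Pcdhb21, which sit between called genes, were not called with either combination.

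From D7 to D12, after the change to 2i and LIF medium, the pattern along the cluster turned over with NanogBiD. The 4 genes called higher, Pcdhb2, Pcdhb6, Pcdhb10 and Pcdhb11, were all in the first part of the cluster (4 of 16, against 11.6% of all genes called higher), and the 1 gene called lower was the last, Pcdhb22 (1 of 16, against 8.37% called lower). With NanogWT 1 gene was called higher, Pcdhb6 (against 6.66%), and none lower (against 4.62%). Quantile normalization left Pcdhb22 as the only call with NanogBiD and none with NanogWT, so the calls of the first part of the cluster depend on the scaling. Of these genes Pcdhb6, Pcdhb10 and Pcdhb11 had entered the test through D12, and with no filter the 4 genes were called higher as well (adjusted p = 8.54e-06 to 0.000678). That test used the same D12 values, so it does not remove the selection. The 4 genes are named because they were called, after their values were seen.

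Pcdhb10 was at 0.237 and 0.0433 FPKM (12 and 2 units) in the NanogBiD libraries at D7 and at 1.23 and 2.01 FPKM (46 and 83 units) at D12. Pcdhb11 was at 0.465 and 0.374 FPKM at D7 and 1.92 and 1.87 at D12. Pcdhb2 was at 0.424 and 0.177 FPKM at D7 and 1.51 and 2.36 at D12. In each of these genes both D12 libraries were several times above both D7 libraries, with log2 differences of 1.19 (SE 0.23, adjusted p = 0.000347), 1.03 (SE 0.17, adjusted p = 6.95e-05) and 1.16 (SE 0.21, adjusted p = 0.000172). Pcdhb6, at 0.193 FPKM and 0 at D7 and 1.48 and 1.57 at D12, differed by 1.21 (SE 0.17, adjusted p = 6.78e-06).

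In the NanogWT libraries the same genes were also higher at D12, Pcdhb6 at 1.19 and 2.11 FPKM against 0.163 and 0.378 at D7 (log2 difference 1.04, SE 0.17, adjusted p = 7.69e-05) and Pcdhb10 at 1.85 and 0.616 against 0.311 and 0.0823 (0.85, SE 0.23, adjusted p = 0.0101, under the fold limit). The call of Pcdhb6 with NanogWT was lost without NanogWT D7 replicate 1 or NanogWT D12 replicate 2 (0.92 and 0.79). For none of Pcdhb2, Pcdhb6, Pcdhb10 and Pcdhb11 was the change from D7 to D12 called different between the combinations. Their NanogBiD minus NanogWT changes of 0.57, 0.17, 0.34 and 0.33 had adjusted p of 0.198 to 0.678.

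Pcdhb22 was the exception. With NanogBiD it was at 3.10 FPKM in the D8 library, 2.46 and 3.93 at D10, and 2.06 and 3.01 at D12, all below its D7 values of 7.11 and 6.52, so that D12 fell by 1.16 against D7 (SE 0.19, adjusted p = 5.25e-05). With NanogWT it was at 11.1 and 10.7 FPKM at D8, 10.3 and 9.22 at D10 and 8.77 and 9.46 at D12, a log2 difference from D7 of -0.08 (SE 0.19). The difference between these 2 changes was itself called, at -1.08 (SE 0.27, adjusted p = 0.00612), the only one among the 16 beta genes, against 7.33% of all genes called lower. That call rests on the fold limit, since leaving out NanogBiD D12 replicate 1 or NanogWT D7 replicate 2 gave -0.89 and -0.96, and leaving out NanogBiD D12 replicate 1 also took the D12 against D7 value to -0.96.

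**Figure D3:**
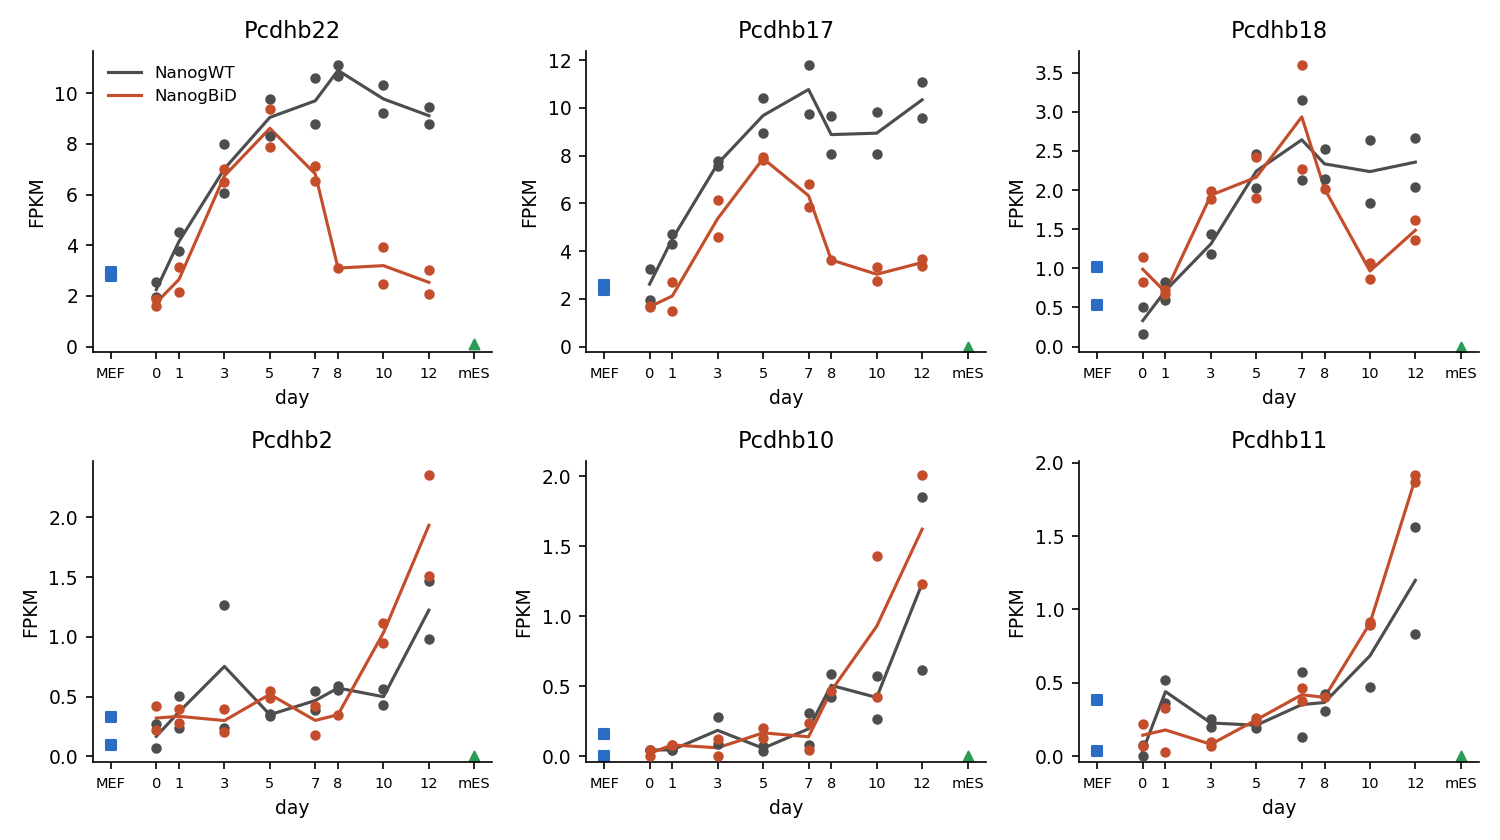
FPKM against day of 3 genes from the end of the beta cluster (Pcdhb22, Pcdhb17, Pcdhb18, top row) and 3 from its beginning (Pcdhb2, Pcdhb10, Pcdhb11, bottom row), with 1 point per library and lines through the means of NanogWT (grey) and NanogBiD (red), squares for MEF and a triangle for mES. The vertical scale differs between panels. Pcdhb22 and Pcdhb17 lie lower with NanogBiD in all libraries from D7 on, with the gap widening at D8, whereas the bottom row is highest at D12 with both.

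Over the whole set of 22 genes, including those too low to test, the beginning and the end of the cluster differed in their median change. From D7 to D12 with NanogWT this was a difference in size, not in direction. The difference was noticed in these values, so it is given as a description. With NanogBiD all 11 of Pcdhb1 to Pcdhb11 had a higher mean at D12 than at D7, with a median log2 difference of 0.79, while 8 of the 11 genes Pcdhb12 to Pcdhb22 had a lower one, with a median of -0.11. With NanogWT all 11 of the first group were also higher at D12, with a median of 0.42, and 7 of the last 11 were higher and 4 lower, with a median of 0.07. Across the 22 genes the D12 minus D7 difference ran against the order along the cluster with a Spearman rho of -0.73 with NanogBiD and -0.46 with NanogWT, and the D7 minus D0 difference ran with it, at 0.82 and 0.72. These points share libraries and differ in level, since most of the first 11 genes lay below 1 FPKM until D10, where the added 1 FPKM compresses differences.

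The share of the first 11 genes in the beta sum is unchanged by a single factor per library, though quantile normalization can change it. It was 11.8% and 10.7% in the NanogBiD libraries at D7, 18.0% at D8, 32.3% and 34.3% at D10, and 46.9% and 45.0% at D12. With NanogWT it was 13.6% and 12.0% at D7 and 26.8% and 21.3% at D12, so that at D12 the combinations did not overlap. MEF were at 28.6% and 18.1%. In FPKM, the first 11 genes summed to 3.30 at D7 and 14.1 at D12 with NanogBiD (4.27 times) and to 5.32 and 11.7 with NanogWT (2.19 times). The last 11 summed to 26.0 and 16.7 with NanogBiD (0.640 times) and to 36.1 and 37.0 with NanogWT (1.02 times).

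**Figure D4:**
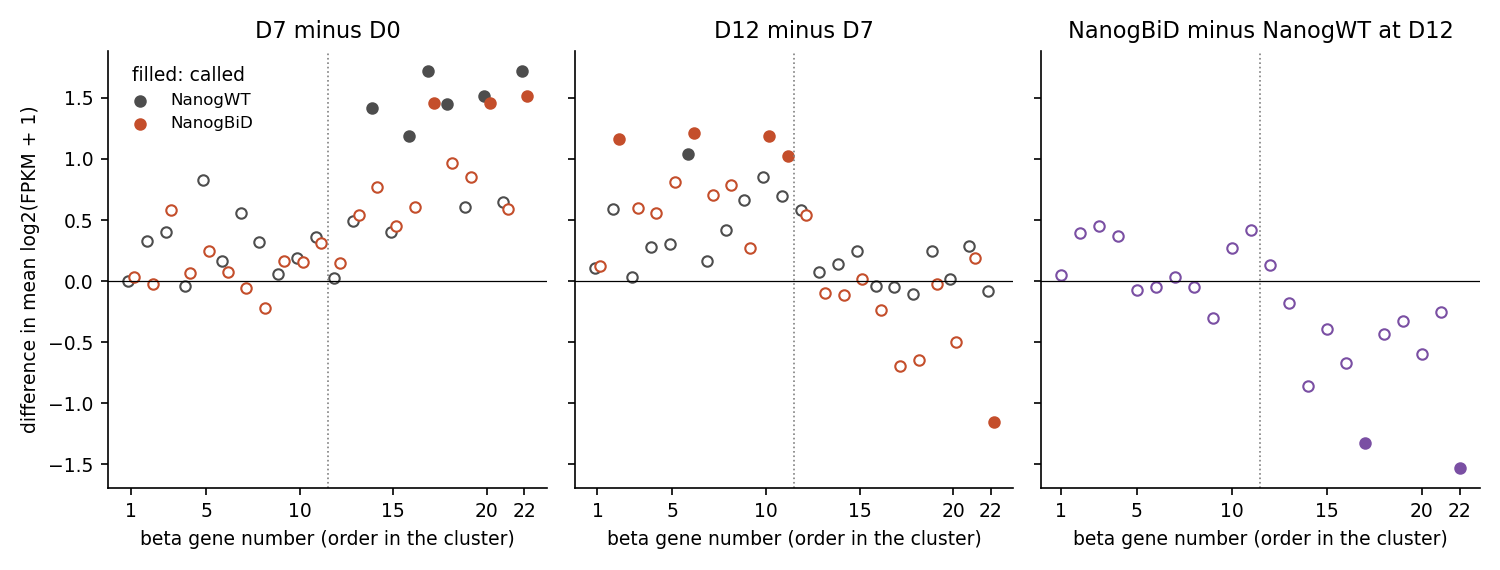
Difference in mean log2(FPKM + 1) for each beta gene against its number, which is its order along the cluster, for D7 minus D0 (left), D12 minus D7 (middle) and NanogBiD minus NanogWT at D12 (right). Grey is NanogWT, red is NanogBiD, purple is their difference, filled points were called and the dotted line separates Pcdhb11 from Pcdhb12. The called points of the left panel lie right of the line, and in the middle panel the called points above 0 lie left of it.

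Compared directly, NanogBiD and NanogWT differed in few beta genes. None of the 16 was called at D0, D1, D3, D5 or D7, while 0.76%, 1.33%, 3.7%, 6.48% and 10.4% of all genes were, and limma's unadjusted p was under 0.05 for 2, 2, 3, 1 and 5 of them. Pcdhb17 came nearest, with 2.72 and 1.51 FPKM against 4.71 and 4.29 at D1 (log2 difference -0.85, SE 0.19, adjusted p = 0.0188) and 5.83 and 6.81 against 9.73 and 11.8 at D7 (-0.68, SE 0.19, adjusted p = 0.0120), so it lay lower with NanogBiD without reaching the fold limit. At D10 and at D12 the same 2 of 16 were called, Pcdhb17 and Pcdhb22, both lower with NanogBiD, against 12.3% and 9.97% of all genes called lower, which is near the share of the members.

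At D12 Pcdhb22 was at 2.06 and 3.01 FPKM with NanogBiD and 8.77 and 9.46 with NanogWT, a log2 difference of -1.53 (SE 0.19, adjusted p = 1.62e-06). Pcdhb17 was at 3.35 and 3.68 FPKM against 9.58 and 11.1, a difference of -1.32 (SE 0.19, adjusted p = 1.23e-05). At D10 the differences were -1.38 and -1.30. The combinations did not overlap for either gene at D7, D8, D10 or D12, and both calls were kept under each alternative processing computed. The end of the cluster leaned the same way, with 10 of the last 11 genes lower with NanogBiD at D12 (median -0.43) and 7 of the first 11 higher (median 0.05). Pcdhb14, at 0.775 and 1.52 FPKM against 2.77 and 2.92, differed by -0.86 (adjusted p = 0.00190) and Pcdhb3, at 1.83 and 1.84 against 0.948 and 1.19, by 0.45 (adjusted p = 0.0441), both under the fold limit. The fibroblast markers were also lower with NanogBiD at these days, with sums of 468 to 584 FPKM against 3512 to 3664 at D10 and the sums given above at D12.

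Over the whole course, from D0 to D12, 10 of 16 beta genes rose with NanogWT, against 12.2% of all genes called higher, and 6 of 16 with NanogBiD, against 24.6%. None was called lower, beside 3.95% and 10.2% of all genes, but most beta genes were below 1 FPKM at D0, too low for such a call. With NanogWT the genes called higher were Pcdhb5, Pcdhb6, Pcdhb10, Pcdhb11, Pcdhb14, Pcdhb16, Pcdhb17, Pcdhb18, Pcdhb20 and Pcdhb22, spread over the cluster. With NanogBiD they were Pcdhb2, Pcdhb3, Pcdhb5, Pcdhb6, Pcdhb10 and Pcdhb11, which are all in its first part. Pcdhb6, Pcdhb10 and Pcdhb11, in both lists, are the genes that passed the filter only through D12. Pcdhb5 and Pcdhb6 are examples of genes called with both: Pcdhb5 went from a mean of 0.205 to 1.67 FPKM with NanogWT and from 0.200 to 1.54 with NanogBiD, and Pcdhb6 from 0.136 to 1.65 and from 0.0397 to 1.53. Neither differed in this change between the combinations (adjusted p = 0.877 and 0.845). The median log2 difference over all genes was 0.19 with NanogWT and 0.34 with NanogBiD, and quantile normalization, which sets those medians to about 0, left 4 and 0 of the 16 beta genes called. The share of higher genes among all calls was 75.5% with NanogWT and 70.7% with NanogBiD, and 55.4% and 50.2% after it.

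The change from D0 to D12 was called different between the combinations for 2 of 16 beta genes, both less with NanogBiD, against 10.5% of all genes called lower. They were Pcdhb22 (-1.28, SE 0.27, adjusted p = 0.000933) and Pcdhb18 (-1.01, SE 0.27, adjusted p = 0.00609). Pcdhb18 was at 2.05 and 2.67 FPKM with NanogWT and 1.36 and 1.61 with NanogBiD at D12, but as given above it started higher with NanogBiD. Its call was lost when NanogWT D0 replicate 1, NanogBiD D0 replicate 1, NanogBiD D12 replicate 1 or NanogWT D12 replicate 2 was left out (-0.83 to -0.94).

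Against untreated MEF, a fit of all 34 libraries and 17049 genes, no beta gene was called at D0 with NanogWT or NanogBiD, beside 6.77% and 11.3% of all genes, and limma's unadjusted p was under 0.05 for 2 and 3 of 16. At D12, 6 of 16 were higher than in MEF with NanogWT (Pcdhb6, Pcdhb14, Pcdhb16, Pcdhb17, Pcdhb20 and Pcdhb22), against 12.8% of all genes, and 5 of 16 with NanogBiD (Pcdhb2, Pcdhb3, Pcdhb6, Pcdhb10 and Pcdhb11), against 22.3%. Both use the same MEF libraries and the D12 libraries used above. Pcdhb22 in NanogBiD at D12, with a mean of 2.53 FPKM, was back near the 2.87 of MEF, whereas with NanogWT it was 3.17 times MEF (log2 difference 1.38, SE 0.19, adjusted p = 4.44e-06). MEF replicate 1 weighs on the count for NanogWT, which was 12 of 16 without it. After quantile normalization 3 of 16 were called with NanogWT and 0 with NanogBiD, with 57.4% and 50.9% of all calls higher in place of 74.7% and 72.0%.

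Alpha protocadherins, read as 1 measurement, were scarce in MEF, with a median over the 12 genes of 0.440 and 0.367 FPKM in the 2 libraries. They were at 1.59 and 2.84 FPKM with NanogWT and 1.58 and 2.19 with NanogBiD at D0, then at 0.543 ± 0.0122 (SD, n = 2) and 0.455 ± 0.00836 at D1, and they climbed again to 3.20 ± 0.743 and 4.05 ± 0.832 at D12. In mES the median was 0.158 FPKM. The alpha genes thus had a high D0, a low D1 and a high D12, a course that the beta genes did not share. Because the gene models overlap, 12 of 12 called at once count as a single call. They were called higher than MEF at D12 with both combinations, Pcdha12 with a mean of 3.55 FPKM with NanogWT and 4.24 with NanogBiD against 0.420 (log2 differences 1.68 and 1.88, adjusted p = 2.00e-06 and 1.98e-07).

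At D0, 12 of 12 alpha genes were called higher than MEF with NanogWT, against 3.67% of all genes called higher, and 11 of 12 with NanogBiD, against 5.77%. Pcdha12 was at 1.63 and 2.89 FPKM with NanogWT and 1.64 and 2.25 with NanogBiD, above both MEF libraries. These D0 calls sit at the fold limit. Fitting the compared groups alone left none of the 12 called with NanogWT, and quantile normalization none with NanogBiD. Without NanogWT D0 replicate 2 none of the 12 was called with NanogWT (Pcdha12 0.89), and without NanogBiD D0 replicate 2 none with NanogBiD (0.90), where leaving out MEF replicate 2 left 2. Pcdhac1 and Pcdhac2, the C-type variants at the end of the alpha cluster, which share its constant exons and are not matched by the symbol rule, moved with it, Pcdhac1 from 0.398 FPKM in MEF to 2.19 and 1.88 at D0 and Pcdhac2 from 0.586 to 2.97 and 2.83. No alpha gene was called between NanogBiD and NanogWT on any of the 7 days compared, which leave out D8 with its single NanogBiD library, and at D12 Pcdha12 differed by 0.20 (SE 0.22).

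Gamma protocadherins were the most abundant of the 3 clusters. In MEF they summed to 112 and 111 FPKM in the transcript table described below, where the beta genes summed to 12.0 and 8.20. In the gene table the 22 overlapping gene models each carry the shared fragments, so that their sum there was 1649 and 1512 FPKM, and their median, 74.5 and 67.6 FPKM in MEF, is used as the one measurement. This median was 48.9 ± 7.78 FPKM with NanogWT and 36.8 ± 0.336 with NanogBiD at D0 (SD, n = 2) and 48.1 ± 9.13 and 31.3 ± 6.94 at D12, and 14.5 in mES. With NanogBiD at D12 the shared gamma measurement was lower than in MEF, with 22 of 22 called against 8.66% of all genes called lower, and with NanogWT at D12 none of the 22 was called (median log2 difference -0.57, beside 4.34% of all genes called lower). Pcdhgb7, for example, was at 75.2 and 69.0 FPKM in MEF, 55.1 and 42.3 with NanogWT and 26.7 and 36.3 with NanogBiD at D12. The 22 calls rest on NanogBiD D12 replicate 1, since none remained without it (Pcdhgb7 -0.97). No gamma gene was called between the combinations on any of these 7 days, although the D12 values did not overlap (Pcdhgb7 -0.62, SE 0.23, adjusted p = 0.0289).

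Pcdhgc3, a C-type gamma variant that many cell types outside the nervous system express, stood out from the other gamma genes, at 1.195 to 2.06 times their median in each library. It was at 104 and 106 FPKM in MEF, 78.7 and 63.3 with NanogWT and 39.7 and 60.5 with NanogBiD at D12, and 19.2 in mES. Against MEF it was called lower with NanogBiD at D12 (-1.08, SE 0.22, adjusted p = 0.000230), and that call too was lost without NanogBiD D12 replicate 1 (-0.78).

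The established iPSC were deposited as a table of transcripts, in which each variable exon of the alpha and gamma clusters has its own transcript, so that variants could be told apart there. The MEF libraries appear in both tables, with beta values in the transcript table at a median of 0.757 and 0.769 times those of the gene table, so levels are compared only within a table. Its fit tested 13434 genes, among them 2 beta, 20 gamma and no alpha genes.

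Both tested beta genes were called lower in the iPSC than in MEF, beside 18.7% of all genes, but they had passed the filter only through the MEF libraries, so a lower level in the iPSC was built into their selection. With no filter, where all 22 beta genes were tested, the same 2 were called lower (adjusted p = 9.35e-06 and 5.42e-06). A call of lower on this scale needs about 1 FPKM or more in MEF, and the next highest MEF mean was 0.650 FPKM (Pcdhb7). The other beta genes could thus not be called lower, and this is no check on the selection. Pcdhb22 was at 2.28 and 2.15 FPKM in MEF and had a mean of 0.134 over the 12 iPSC (log2 difference -1.52, SE 0.17, adjusted p = 5.56e-06), and Pcdhb17 was at 1.96 and 1.85 against 0.113 (-1.41, SE 0.16, adjusted p = 5.07e-06). The 22 beta genes summed to 12.0 and 8.20 FPKM in MEF, 0.0451 in mES, and 0.0294 to 0.677 in 11 of the 12 iPSC. The twelfth, NanogBiD iPSC1 sample 9, was at 2.08 FPKM, 20.6% of the MEF mean, and its fibroblast markers summed to 1415 FPKM, 19.9% of the MEF mean, against 3.21 to 442 FPKM in the other 11. This table holds no D12 library, so the iPSC and the D12 populations were not compared.

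NanogBiD and NanogWT iPSC did not differ in any tested gene by limma (0% of 13434 called, and none of the members at an unadjusted p under 0.05). The log2 difference was -0.03 (SE 0.13) for Pcdhb22, 0.07 (SE 0.12) for Pcdhb17 and 0.15 (SE 0.20) for Pcdhgc3. Beta sums ran from 0.181 to 0.677 FPKM in the 6 NanogWT iPSC, with a median of 0.266. In the 6 NanogBiD iPSC they ran from 0.0294 to 2.08 FPKM, with a median of 0.214. The top value was that of NanogBiD iPSC1 sample 9, and the next highest NanogBiD value was 0.472 FPKM.

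Of the 20 gamma variants tested, 16 were called lower in iPSC than in MEF and none higher, beside 18.7% and 21.7% of all genes. Of the 20, 11 had passed the filter only through the MEF libraries, 10 of them called lower, and of the other 9 there were 6 called lower. With no filter, where all 22 were tested, the count was also 16. The added Pcdhgb1 and Pcdhgc4, with MEF means of 0.770 and 0.577 FPKM, were too low to be called lower, so this is no check on the selection. Pcdhgc3 led in every sample, at 53.6 and 62.2 FPKM in MEF, 8.66 to 24.0 in the iPSC and 8.93 in mES, a log2 difference of -2.31 (SE 0.26, adjusted p = 5.67e-06). It gave 47.9% and 56.3% of all gamma FPKM in MEF, 33.6% to 64.2% in the iPSC and 49.5% in mES, so its share overlapped between them although its level did not. Pcdhga10, from a mean of 4.54 FPKM in MEF to 1.01, and Pcdhgb7, from 2.85 to 0.740, were called lower too (-1.49, SE 0.29, and -1.18, SE 0.23). Pcdhgb2, which had passed through MEF, had means of 4.14 FPKM in MEF and 0.468 in the iPSC.

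The 4 that were not called were Pcdhga1, Pcdhga2, Pcdhga11 and Pcdhga12. Pcdhga12, the last of the A-type gamma variants, was at 1.35 and 2.89 FPKM in MEF, 1.40 to 6.82 in the iPSC and 2.17 in mES, a difference of 0.61 (SE 0.29, adjusted p = 0.0787). While the gamma sum went from 112 and 111 FPKM in MEF to 17.1 to 37.4 in the iPSC, the share of Pcdhga12 went from 1.203% and 2.61% to between 3.73% and 25.1%, and it was 12.0% in mES. It was the second most abundant gamma variant in 11 of 12 iPSC and in mES, and in neither MEF library. The exception was again NanogBiD iPSC1 sample 9, which had the lowest share, 3.73%, and the highest gamma sum. Pcdhga11 had means of 1.59 FPKM in MEF and 1.43 in the iPSC (-0.11, SE 0.30).

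**Figure D5:**
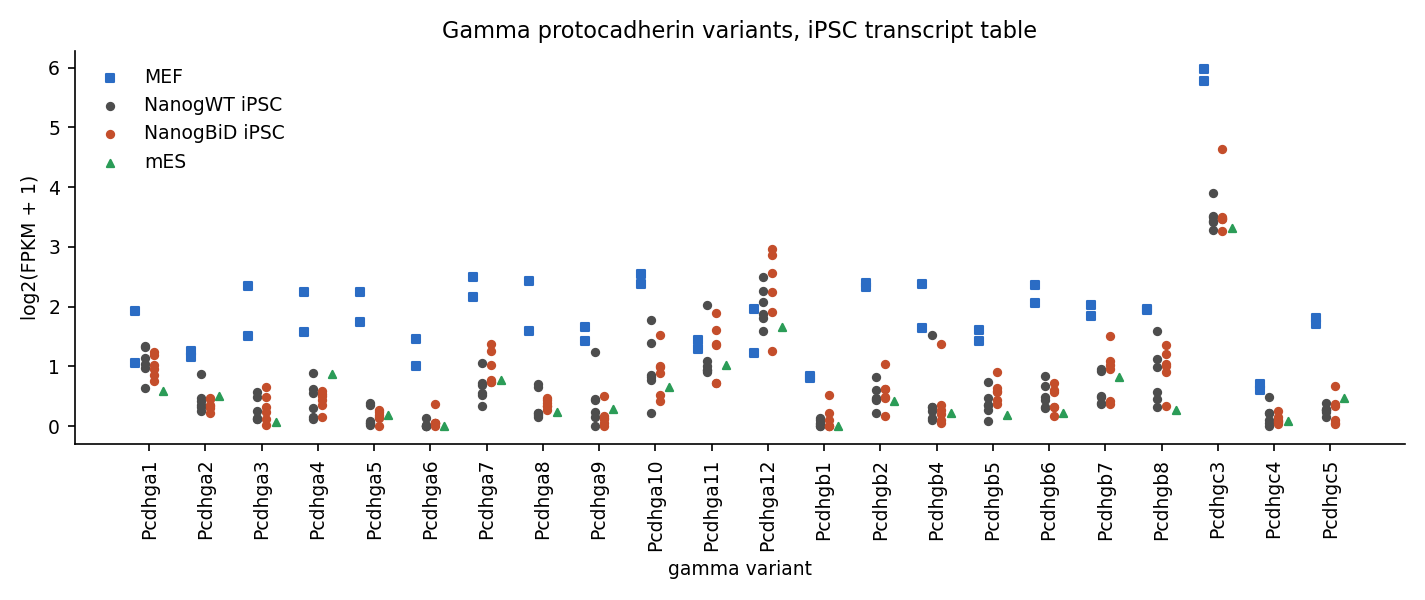
Level of each gamma variant, as log2(FPKM + 1), in the transcript table, with 1 point per library for MEF (squares), NanogWT iPSC (grey), NanogBiD iPSC (red) and mES (triangles). Pcdhgc3 is highest in all of them, most variants are lower in iPSC than in MEF, and Pcdhga12 is not, with 1.35 and 2.89 FPKM in MEF and 1.40 to 6.82 in the iPSC.

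The unclustered protocadherins are a related family outside the 3 clusters, with promoters of their own, and they serve as a comparison. At D12, 5 of 11 tested were lower and 1 higher with NanogBiD than with NanogWT, beside 9.97% and 13.5% of all genes. The 4 most abundant were all among the lower ones: Pcdh10 was at 1.23 and 1.88 FPKM with NanogBiD and 28.2 and 33.2 with NanogWT (log2 difference -3.64, SE 0.21, adjusted p = 7.01e-11), Pcdh7 at 0.900 and 1.35 against 14.3 and 14.7 (-2.88), Pcdh9 at 0.921 and 2.01 against 11.1 and 12.5 (-2.41), and Pcdh18 at 4.00 and 6.51 against 30.8 and 29.5 (-2.35). All 4 differences exceeded in size those of Pcdhb22 and Pcdhb17, which was not tested. Against D0, these 4 fell with NanogBiD (Pcdh7 by 4.57 and Pcdh18 by 3.34 on the log2 scale). Pcdh7 was already called higher with NanogBiD at D0 (means of 49.5 against 21.1 FPKM, log2 difference 1.21, adjusted p = 0.00141). No beta gene was called lower from D0, but most were below 1 FPKM there, too low for such a call. Pcdh1 was not called at D12 (0.75, adjusted p = 0.00256).

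Among 21 genes known to regulate the clusters, 9 were higher with NanogBiD than with NanogWT at D12 and none lower, beside 13.5% of all genes called higher. Dnmt3b, a de novo DNA methyltransferase, was at 10.3 and 6.93 FPKM with NanogBiD, 0.959 and 1.95 with NanogWT and 16.7 in mES (log2 difference 1.98, SE 0.24, adjusted p = 1.11e-06). Rad21, a cohesin subunit, was at 111 and 99.7 FPKM against 43.0 and 54.6 (1.10), and Setdb1, a histone H3K9 methyltransferase, at 24.5 and 21.6 against 10.3 and 11.5 (1.01). The other 6 were Dnmt1, Dnmt3l, Smc3, Trim28, Uhrf1 and Wapl, with differences of 1.16 to 2.72, and these are named only because they were called. Ctcf (0.54), Smchd1 (0.68) and Wiz (0.75) had adjusted p under 0.05 below the fold limit, and Ehmt2 differed by 0.19 (SE 0.20). Of the 14 signalling partners and proteases of the clustered protocadherins, such as Ptk2, Adam10 and the WAVE subunit Wasf2, none was called at D12. Limma's unadjusted p was under 0.05 for 7 of them. Adam10 had been called higher with NanogBiD at D0 (log2 difference 1.21, adjusted p = 0.000433). Its change from D0 to D12 was called different, less with NanogBiD (-1.92, adjusted p = 4.45e-06). No other partner was called in that change.

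The genes that flank the clusters on chromosome 18 were read as neighbours. Of 11 tested there, 3 were higher with NanogBiD at D12 and none lower, beside the same 13.5% and 9.97% of all genes. Taf7, a TFIID subunit whose gene lies between the beta and gamma clusters, was at 32.5 and 21.3 FPKM with NanogBiD, 4.69 and 7.39 with NanogWT, 1.23 and 0.949 in MEF and 52.1 in mES (1.98, SE 0.30, adjusted p = 1.71e-05). Diaph1, a formin beyond the gamma cluster, was at 31.8 and 23.0 FPKM against 8.31 and 9.97 (1.47, SE 0.15, adjusted p = 1.07e-07). Dnd1 was also called higher (2.52), Hdac3 was not called (0.30, adjusted p = 0.0615), and Slc25a2, between the beta cluster and Taf7, was at 0.332 FPKM or less in all libraries of the gene table and was not tested. At D12 Taf7 was thus higher and Pcdhb22, the beta gene closest to it, lower with NanogBiD.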

How the data were processed

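Reads had been trimmed by the authors (Trim Galore 0.6.4), aligned to mm10 with HISAT2 2.2.1 and quantified with StringTie 2.2.1, and the authors deposited FPKM per gene for the time course, MEF and mES and FPKM per transcript for the iPSC, MEF and mES. The annotation and the strand setting are not given in the sources used here. Transcript values were summed by symbol. Positions were taken from RefSeq (GRCm38.p6) by symbol.

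Genes at 1 FPKM or more in at least 2 libraries were tested on log2(FPKM + 1) with limma 3.58.1 (R 4.3.3, moderated tests with a mean-variance trend, Benjamini-Hochberg adjustment over all genes tested). One fit held the 31 time-course libraries (16842 genes), one added MEF and mES (34 libraries, 17049 genes), and one held the iPSC table (15 libraries, 13434 genes). A call required a log2 difference of 1 or more with an adjusted p below 0.05. Changes between days and between combinations share libraries. Sums and shares were computed in Python 3.11.15 (pandas 2.3.3; scipy 1.17.1), plots drawn with matplotlib 3.10.9, and the test was tried on simulated data.

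The depth of each library was read from the steps of low FPKM values, taking RefSeq lengths. Alternatives were a pseudocount of 0.1, no filter, TPM, quantile normalization, no fold limit, the compared groups alone, a replicate block and leaving out each replicate. Genes named by rule were the 8 beta, 4 gamma, 2 alpha and 4 unclustered protocadherins with the highest mean FPKM, beta genes called between combinations from D1 to D7, and fixed regulators and neighbours. Others are named because they were called. The members and lists were chosen with earlier results of these data known. Protein and promoter sequences of the members are not printed here.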

Additional observations from a re-analysis of the deposited data

Results flagged for a closer look

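The combinations differed in their change over time, by the interaction term of limma, for 9 of the genes named by rule from D0 to D12 and for 5 from D7 to D12. Of all genes tested, 10.5% and 7.33% were called lower in these 2 comparisons, and 56.1% and 48.0% of all calls were higher. The NanogBiD minus NanogWT change was -1.28 for Pcdhb22 and -1.01 for Pcdhb18 among the clustered genes, -4.19 for Pcdh10, -4.08 for Pcdh7, -2.79 for Pcdh18 and -2.41 for Pcdh9 among the unclustered ones, and 1.95 for Dnmt3b, 1.82 for Taf7 and 1.56 for Diaph1. From D7 to D12 it was -1.08 for Pcdhb22, -2.55 for Pcdh7, -1.74 for Pcdh10, -1.24 for Pcdh18 and 1.16 for Diaph1. As given above, Pcdh7 was already called higher with NanogBiD at D0, and Pcdhb18 started higher with it.

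Among the iPSC, 1 sample lay far from the others of its group by Dixon's test in 8 of 24 groups of values tested. The limit of this test is set for about 1 in 20 groups of independent, normally distributed values. These values were not independent, since the beta sum holds Pcdhb17 and Pcdhb22, so the count is not set against chance. The groups were the 6 samples of each combination and, overlapping with them, the 4 of NanogWT iPSC1. NanogBiD iPSC1 sample 9 accounts for 5 of them, with the highest beta sum (2.08 FPKM), alpha sum (0.438 FPKM), Pcdhgc3 (24.0 FPKM), Pcdhb17 (0.662 FPKM) and Pcdhb22 (0.673 FPKM), and it also had the highest fibroblast marker sum, 1415 FPKM. Pcdhb22 was listed at 0 in NanogWT iPSC1 sample 1-2, apart from the other 3 of that line but not within the 6 of the combination. Among those 6, Pcdhgc3 was at 13.9 FPKM in iPSC1 sample 3, and Pcdhga11 was at 3.08 FPKM in iPSC2 sample 6.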

How the results depend on the processing

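Of the 340 counts of called members computed under an alternative, 284 were within 1.5 times the reported count, and no named gene reversed (1958 values stayed on their side of the threshold and 103 no longer passed it). A pseudocount of 0.1, which gives low genes more weight, called 1 of 16 beta genes between combinations at D0, 1 at D1, 1 at D7 and 5 at D10, and for the other comparisons it called 13 from D0 to D12 with NanogBiD, 4 for the difference of these changes, 2 and 1 at D0 against MEF (NanogWT and NanogBiD), 15 and 8 at D12 against MEF, 11 and 9 from D0 to D7, and 3 from D7 to D12 with NanogWT. Without the fold limit the counts were 1 at D1, 3 at D7, 7 at D10 and 6 at D12 between combinations, 13 from D0 to D12 with NanogBiD, 5 for the difference of changes, 1 at D0 with NanogBiD and 15 and 11 at D12 against MEF, 10 and 9 from D0 to D7, and 4 and 10 from D7 to D12 (NanogWT and NanogBiD). TPM gave 5 at D10, 10 from D0 to D12 with NanogBiD, 4 for the difference of changes, 13 at D12 with NanogWT against MEF, 6 from D0 to D7 with NanogBiD and 3 from D7 to D12 with NanogWT. Quantile normalization gave 4 and 0 from D0 to D12, 4 for the difference of changes, 3 and 0 at D12 against MEF, 0 and 1 from D7 to D12, and 0 alpha genes at D0 with NanogBiD against MEF. Fitting the compared groups alone gave 0 alpha genes at D0 with NanogWT against MEF. The cause of these shifts was not tested. The share of all genes called under each alternative is not given here, so these counts are not read as a result about the members.

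Leaving out 1 library at a time gave 0 to 0 beta genes between combinations at D0, D3, D5 and D7, 0 to 1 at D1, 2 to 3 at D10 and 2 to 4 at D12. From D0 to D12 the range was 9 to 11 with NanogWT, 4 to 7 with NanogBiD and 1 to 4 for their difference, which was 4 without NanogBiD D12 replicate 2. From D0 to D7 it was 6 to 7 and 3 to 4, from D7 to D12 0 to 1 with NanogWT and 3 to 5 with NanogBiD (3 without NanogBiD D12 replicate 2), and 0 to 1 for their difference. Against MEF it was 0 to 0 at D0, 6 to 12 at D12 with NanogWT, 4 to 6 with NanogBiD and 2 to 2 for the iPSC, and 0 to 0 between the iPSC of both combinations. Alpha counts ranged from 0 to 12 at D0 and 12 to 12 at D12 against MEF, gamma counts from 0 to 22 at D12 with NanogBiD and 14 to 16 for the iPSC.

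Same-numbered replicates of the combinations did not deviate together throughout (r from -0.0647 to 0.395 over 7 days, above 0.1 on 4), so the number is not taken as a pairing. A replicate block gave the same counts of beta genes as reported in each time-course comparison, for example 2 at D12 between combinations, 10 and 6 from D0 to D12 and 5 from D7 to D12 with NanogBiD.

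In the shallower libraries the low beta genes rest on few units, such as the 12 and 2 units of Pcdhb10 in NanogBiD at D7, and a 0 there does not show absence.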

Other observations

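Pcdh8, an unclustered protocadherin named here because it was the only one higher with NanogBiD at D12, was at 7.42 and 13.2 FPKM against 2.07 and 3.44 with NanogWT (log2 difference 1.57), and at 0.0656 and 0.0320 FPKM in MEF and 0.172 in mES. Of the 21 regulators, 9 were higher and 1 lower in the iPSC than in MEF, and 13 were higher from D0 to D12 with NanogBiD, beside 21.7% and 24.6% of all genes called higher.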
